A study of Arabidopsis thaliana with 15 samples.

Results

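The heat shock group described here consisted of 10 *Arabidopsis thaliana* genes, chosen by locus through the gene names that the array gives its probes. It held the heat shock transcription factor *HSFA2* (AT2G26150) and 9 chaperones, namely *HSP18.2* (AT5G59720), *HSP17.4* (AT3G46230), *HSP17.6A* (AT5G12030), *HSP17.6II* (AT5G12020), *HSP21* (AT4G27670), *HSP22* (AT4G10250), *HSP70-4* (AT3G12580), *HSP90.1* (AT5G52640) and *HSP101* (AT1G74310). All 10 had a probe, out of 25410 loci to which a probe could be matched. The study asked how ANAC046, a NAC transcription factor of leaf senescence, changes gene expression, and hybridized 15 one-color arrays of Columbia-0 plants, 3 for each of 5 groups. ANAC046 overexpressors (OX, 35S:ANAC046:NOS) and wild type (WT) were sampled as untreated leaves from soil at 50 days after sowing (DAS). Plants lacking ANAC046 (KO, anac046), plants with the ANAC046 chimeric repressor (SRDX, 35S:ANAC046-SRDX:NOS) and a separate set of WT were grown on MS agar and sampled after 5 days of dark treatment (5 DAD). The labels call these dark samples seedlings and the methods call them leaves. Both transgenes were driven by the constitutive 35S promoter, KO was 1 transposon insertion line, and RNA of OX and SRDX came from 3 independent lines each, which the labels do not tie to the replicate numbers. The methods name 3 biological replicates. Neither they nor the labels say whether the replicates of KO and WT were separate cultures, so their p-values measure the spread between these samples. Tests between groups at 5 DAD shared an estimate of spread over KO, SRDX and WT. The p-values of KO against WT thus also rest on the spread among the SRDX lines.

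When proteins unfold, as at high temperature, plants make heat shock proteins, which are chaperones. Small HSPs hold unfolded proteins and keep them from clumping, HSP70 and HSP90 refold or mature them with the help of ATP, and HSP101 pulls aggregates apart. Heat shock factors such as HSFA2 switch these genes on by binding short heat shock elements in their promoters, and the same genes also respond to oxidative stress, to proteotoxic stress and, for some members, to developmental cues such as seed maturation.

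*ANAC046* itself was not well above background on any KO array and was at least 272-fold lower than in WT at 5 DAD, while in SRDX it was 1.11 ± 0.14 (log2, SE) higher than in WT. OX replicate 1 had an *ANAC046* log2 signal of 2.64, against 8.95 and 9.01 in the other OX replicates and 0.42 to 0.77 in WT. Between 62.2% and 80.9% of the spots of an array were well above background. The 3 KO arrays shared a slide with SRDX replicate 3, whereas SRDX replicates 1 and 2, WT at 5 DAD, OX and WT at 50 DAS lay on slides of their own. On the slide of KO and SRDX replicate 3 the share was 67.0% to 68.7%. It was 76.3% to 80.9% in WT at 5 DAD, and 77.5% and 77.6% in SRDX replicates 1 and 2. The 5 leaf markers, such as the Rubisco small subunit gene *RBCS1A*, were well above background on all 15 arrays. Of 7 root markers, 6 were well above background on every array of WT at 5 DAD and 1 on every array of WT at 50 DAS. In tissue samples like these, fewer cells of a type and less RNA per cell cannot be told apart.

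Signals are given as log2 normalized signal, on which 0 lies near the median spot of an array, and values of replicates 1, 2 and 3 stand in that order. One probe's level says nothing about another's, so each gene is compared with itself. Tests were run on genes whose probe was well above background throughout at least 1 of the groups compared, and differences are called where the adjusted p of limma (Benjamini-Hochberg adjustment over all genes tested) was under 0.15, the limit of the study. *HSP21*, the small HSP of the plastid, and *HSP22*, that of the endoplasmic reticulum (ER), were well above background on none of the 15 arrays. Their signals ran between -5.24 and -3.85 and between -5.30 and -3.99, and no fold is given for them. The other 8 genes were well above background on all 9 arrays at 5 DAD.

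**Figure D1:**
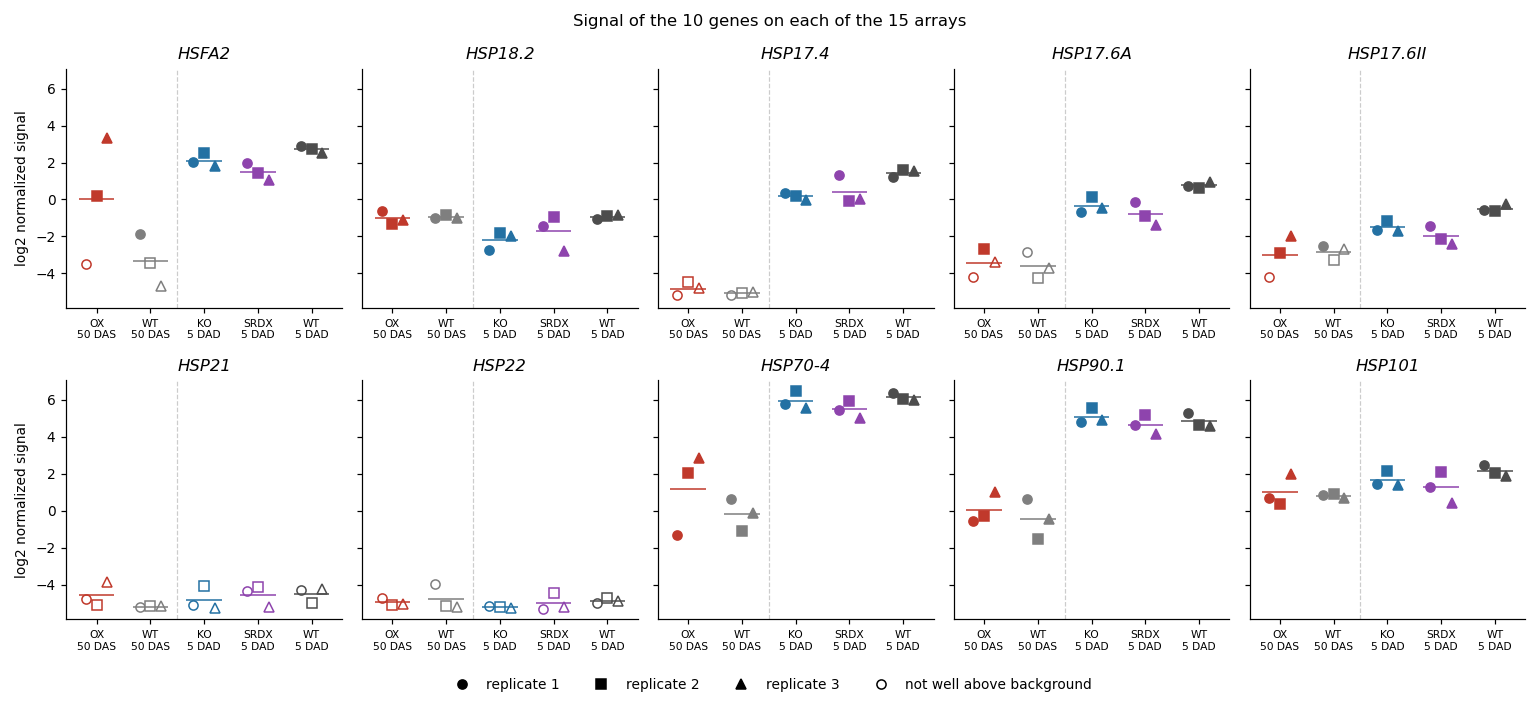
Log2 normalized signal (vertical axis) of each of the 10 genes on each of the 15 arrays, with OX and WT at 50 DAS left of the dashed line and KO, SRDX and WT at 5 DAD right of it; marker shape gives the replicate, a horizontal line the group mean, and open markers arrays on which the probe was not well above background. *HSFA2*, *HSP17.4*, *HSP17.6A*, *HSP70-4* and *HSP90.1* lie far higher at 5 DAD than in WT at 50 DAS, *HSP18.2* does not, and *HSP21* and *HSP22* are open throughout.

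Dark-treated WT differed widely from WT leaves at 50 DAS in this gene group, with *HSP17.4*, *HSP70-4*, *HSFA2* and *HSP90.1* the most apart and *HSP18.2* not past the limit. Genotype is the same here, but tissue label, plant age (the methods place plants in the dark before 50 DAS), medium, slide and scan day differ together with the dark treatment and cannot be told apart from it. Of the 8 genes tested, 7 were higher in WT at 5 DAD and none lower, where 45.9% of all genes tested were called higher and 40.2% lower. Among those 7, 4 (*HSFA2*, *HSP17.4*, *HSP17.6A* and *HSP17.6II*) entered the test only through the dark group, in which they are bright. The 4 genes that were well above background in both groups gave 3 higher calls. By Storey's q-values *HSP18.2* passed too, for 8 higher, but 53.4% of all genes tested were higher and 46.6% lower by that rule. It thus called every gene tested and singles out none of these genes.

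*HSFA2*, the regulator, had log2 signals of 2.88, 2.72 and 2.52 in WT at 5 DAD, against -1.85, -3.44 and -4.70 in WT at 50 DAS. Only the first of these WT leaves was well above background for it. The groups did not overlap and differed by 6.04 ± 0.68 (log2, SE), with an adjusted p of 0.000251. *HSP70-4*, a cytosolic HSP70, had 6.39, 6.03 and 6.0 in WT at 5 DAD and 0.64, -1.07 and -0.14 in WT at 50 DAS, which is 80.4-fold higher (6.33 ± 0.42, adjusted p = 2.105e-05). *HSP90.1*, the heat-inducible cytosolic HSP90, had 5.28, 4.65 and 4.58 in WT at 5 DAD and 0.63, -1.52 and -0.44 in WT at 50 DAS, 38.8-fold higher (5.28 ± 0.54, adjusted p = 0.000158). *HSP101*, the disaggregase needed for acquired heat tolerance, moved least of the genes that rose. It had 2.47, 2.04 and 1.90 in WT at 5 DAD and 0.83, 0.90 and 0.71 in WT at 50 DAS, 2.50-fold higher (1.32 ± 0.16, adjusted p = 0.00038).

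Small HSPs of the cytosol fall into class I, to which *HSP18.2* and *HSP17.4* belong, and class II, to which *HSP17.6A* and *HSP17.6II* belong. *HSP17.4* had 1.21, 1.58 and 1.57 in WT at 5 DAD and lay between -5.16 and -5.03, never well above background, in WT at 50 DAS. It was at least 15.8-fold higher (adjusted p = 2.953e-07), taking for each array of the dim group the faintest probe that was well above background there, or the probe's own signal where that was higher. *HSP17.6A* had 0.73, 0.63 and 0.94 in WT at 5 DAD and lay between -4.23 and -2.85 in WT at 50 DAS, likewise never well above background there, which makes it at least 9.85-fold higher (adjusted p = 4.551e-05). *HSP17.6II* rose by 2.33 ± 0.22 (adjusted p = 0.00011), with 1 of the 3 arrays of WT at 50 DAS well above background. *HSP18.2* stood apart from the other class I gene. Its signals were -1.09, -0.90 and -0.86 in WT at 5 DAD and -1.01, -0.86 and -1.03 in WT at 50 DAS, so the groups overlapped (0.02 ± 0.10, adjusted p = 0.882), and its sign turned under another background correction (-0.034). All 3 arrays of WT at 5 DAD lay above all 3 of WT at 50 DAS for 8 of the 10 genes, where 43.5% of all genes tested did so. *HSP21* is the eighth, at signals not well above background.

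The order of the 5 groups was much the same for most of these genes. WT at 5 DAD had the highest mean for 8 of the 10 genes, the exceptions being *HSP90.1*, whose brighter probe was highest in KO (5.10 ± 0.41, SD, n = 3) and whose fainter probe was highest in WT at 5 DAD, and *HSP22*, which was never well above background. For *HSP70-4* and *HSP90.1* the mean of the lowest dark group, SRDX, lay 4.30 and 4.59 above that of the highest group at 50 DAS, OX, with no overlap between their arrays. *HSP17.4* and *HSP17.6A* also had every dark array above every array at 50 DAS, where most of their signals were not well above background. For *HSP17.6II*, OX replicate 3 (-2.00) lay above SRDX replicates 2 and 3 (-2.13 and -2.39). For *HSFA2* the dark groups overlapped with OX, because OX replicate 3 had a signal of 3.34, above all 9 dark arrays. *HSP101* ran down from WT at 5 DAD through KO, SRDX and OX to WT at 50 DAS, with every pair of neighbouring groups overlapping. Of the genes well above background, *HSP18.2* alone had both mutant dark groups at the bottom, at -2.17 ± 0.48 in KO and -1.73 ± 0.96 in SRDX, under OX and WT at 50 DAS.

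In KO the 4 cytosolic small HSPs of this group were lower than in WT at 5 DAD, while *HSP70-4*, *HSP90.1* and *HSP101* did not pass the test. Of the 8 genes tested, 4 were lower and none higher, where 14.2% of all genes tested were lower and 18% higher. The 4 were the 2 class I and 2 class II genes, and they were lower by factors of 2.03 to 2.41. *HSP17.4* had 0.37, 0.18 and -0.01 in KO, against 1.21, 1.58 and 1.57 in WT, a difference of -1.27 ± 0.35 (adjusted p = 0.0490). *HSP17.6II* had -1.66, -1.17 and -1.72 in KO and -0.58, -0.64 and -0.25 in WT (-1.02 ± 0.27, adjusted p = 0.0447). *HSP17.6A* had -0.66, 0.11 and -0.47 in KO and 0.73, 0.63 and 0.94 in WT (-1.10 ± 0.32, adjusted p = 0.0570). Every KO array was below every WT array for these 3 genes. *HSP18.2* had -2.72, -1.83 and -1.97 in KO and -1.09, -0.90 and -0.86 in WT, again without overlap (-1.22 ± 0.44, adjusted p = 0.0967). This was the least firm of the 4 calls, since it was lost in 5 of the 6 fits that left out 1 array and with slide as a random block (adjusted p = 0.192).

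*HSFA2* had 2.0, 2.50 and 1.82 in KO and 2.88, 2.72 and 2.52 in WT at 5 DAD. All KO arrays lay below all WT arrays, but the difference of -0.60 ± 0.27 did not pass the limit (adjusted p = 0.166). It did pass with 75th percentile scaling (0.144), normexp background correction (0.119) and the authors' normalized table (0.0844), and by Storey's q-value (0.0738), by which 5 of the 8 genes were lower, where 24.7% of all genes tested were. The large chaperones were close between the groups. *HSP70-4* had 5.80, 6.50 and 5.58 in KO and 6.39, 6.03 and 6.0 in WT (-0.18 ± 0.30, adjusted p = 0.708), and *HSP90.1* had 4.80, 5.57 and 4.92 in KO and 5.28, 4.65 and 4.58 in WT (0.26 ± 0.32, adjusted p = 0.604). *HSP101* had 1.47, 2.13 and 1.39 in KO and 2.47, 2.04 and 1.90 in WT (-0.47 ± 0.41, adjusted p = 0.447). KO replicate 2 was the highest KO array for all 3 of these genes and for *HSFA2*. Of the 10 genes, 6 had all KO arrays below all WT arrays, where 20.7% of all genes tested did, and 1 of the 6 is *HSP22*, at signals not well above background.

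SRDX plants, compared with the same 3 WT arrays, had lower signals of the class II small HSPs and of *HSFA2*. Of the 8 genes tested, 4 were lower and none higher, where 8.85% of all genes tested were lower and 11.6% higher. *HSP17.6II* had -1.43, -2.13 and -2.39 in SRDX, against -0.58, -0.64 and -0.25 in WT, 2.82-fold lower (-1.49 ± 0.27, adjusted p = 0.0240). *HSP17.6A* had -0.14, -0.92 and -1.37 in SRDX and 0.73, 0.63 and 0.94 in WT, 2.97-fold lower (-1.57 ± 0.32, adjusted p = 0.0310). Both calls held in all 6 fits that left out 1 array, and all SRDX arrays lay below all WT arrays. The probes of these class II genes may share signal, since their sequences are similar and the probe sequences were not compared. *HSFA2* had 1.99, 1.44 and 1.04 in SRDX and 2.88, 2.72 and 2.52 in WT, 2.32-fold lower without overlap (-1.21 ± 0.27, adjusted p = 0.0394). Its adjusted p was 0.600 in 1 fit of all 15 arrays, whose estimate of spread takes in the OX replicates, and 0.151 and 0.156 without WT replicates 1 and 2.

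Class I *HSP17.4* had 1.30, -0.10 and 0.00 in SRDX and 1.21, 1.58 and 1.57 in WT, so that SRDX replicate 1 lay among the WT arrays. The difference of -1.05 ± 0.35 passed the limit (adjusted p = 0.105) but not with slide as a random block (0.154), nor in 4 of the 6 fits that left out 1 array. *HSP18.2* had -1.42, -0.96 and -2.81 in SRDX and -1.09, -0.90 and -0.86 in WT, with most of the difference in SRDX replicate 3 (-0.78 ± 0.44, adjusted p = 0.308). *HSP70-4* had 5.47, 5.94 and 5.04 in SRDX and 6.39, 6.03 and 6.0 in WT (-0.65 ± 0.30, adjusted p = 0.210). All 3 SRDX arrays lay below the WT arrays for it, as they did for 4 of the 10 genes, where 15.2% of all genes tested did. *HSP101* had 1.28, 2.10 and 0.40 in SRDX and 2.47, 2.04 and 1.90 in WT (-0.88 ± 0.41, adjusted p = 0.218), and *HSP90.1* had 4.63, 5.16 and 4.14 in SRDX and 5.28, 4.65 and 4.58 in WT (-0.19 ± 0.32, adjusted p = 0.746). By Storey's q-values *HSP70-4* (0.105) and *HSP101* (0.109) passed as well, for 6 lower genes, where 17.1% of all genes tested were lower by that rule.

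**Figure D2:**
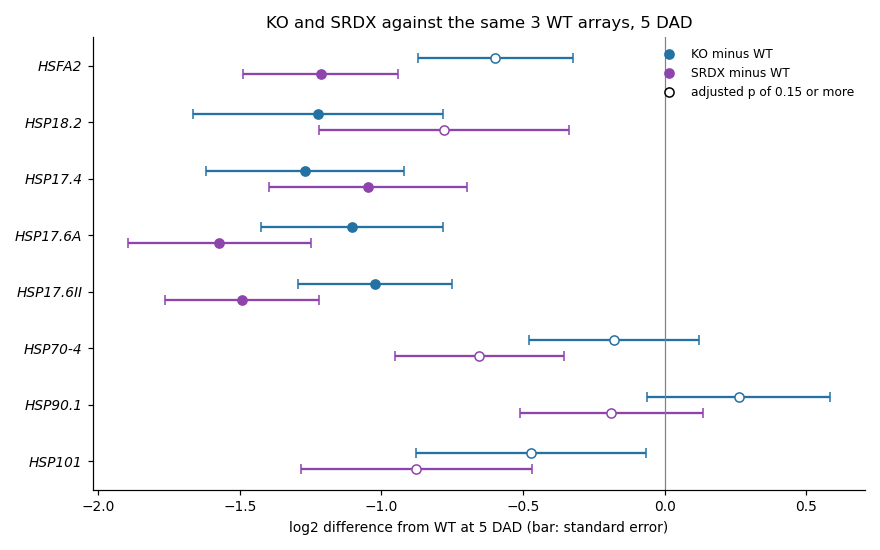
Log2 difference from WT at 5 DAD (horizontal axis) of the 8 genes tested, in KO (blue) and SRDX (purple), each group of 3 arrays against the same 3 WT arrays; bars are standard errors of limma and open markers had an adjusted p of 0.15 or more. The 4 cytosolic small HSPs lie between -1.57 and -0.78 in both genotypes, and *HSP90.1* lies nearest to 0 in SRDX and above 0 in KO (0.26).

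KO and SRDX share their WT arrays, so their resemblance in the plot of differences is not independent, and the genotypes were also compared directly. Over the 8 genes tested the median difference from WT was -0.81 in KO and -0.96 in SRDX, against 0.02 and -0.04 over all genes tested in those comparisons. Between SRDX and KO no gene of the 8 passed the limit, where 0.475% of all genes tested did, and the adjusted p ran between 0.419 and 0.866. Differences ran between -0.62 ± 0.27 for *HSFA2*, the only one with an unadjusted p under 0.05 (0.0472, limma; 11.8% of all genes tested), and 0.44 ± 0.44 for *HSP18.2*. By Storey's q-values none of the 8 passed, against 0.38% of all genes tested that were higher and 0.813% that were lower. The median over the 8 genes was -0.46 (SRDX minus KO), against -0.07 over all genes tested.

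The arrays of a genotype differed among themselves in these genes. SRDX replicate 3 lay below all WT arrays for 10 of the 10 genes, SRDX replicate 1 for 7 and SRDX replicate 2 for 5, with 2 genes above all WT arrays in SRDX replicate 2. Those 2 are *HSP21* and *HSP22*, at signals not well above background. The SD of the differences from the WT mean over all genes tested was likewise larger in SRDX replicate 3 (0.933) than in replicates 1 and 2 (0.611 and 0.668). On the slide it shared with KO, SRDX replicate 3 lay below all 3 KO arrays for 7 of the 10 genes, among them *HSP101* (-1.26 from the KO mean), *HSFA2* (-1.07), *HSP17.6A* (-1.03) and *HSP90.1* (-0.95). Within that slide *HSP18.2* was lower in SRDX (-0.63), the opposite sign to the comparison of all arrays. No WT array shared a slide with KO or SRDX, so a difference between slides cannot be told apart from one between these genotypes and WT. Without SRDX replicate 2, 7 of the genes were lower in SRDX than in WT, with *HSP18.2* (adjusted p = 0.0908), *HSP70-4* (0.0754) and *HSP101* (0.0412) added. Without WT replicate 1 or WT replicate 2, only *HSP17.6A* and *HSP17.6II* passed in that comparison. In KO, 2 passed without WT replicate 2, without WT replicate 3 or without KO replicate 3. Shares of all genes called in these fits are not given here, so the counts cannot be called particular to these genes.

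Leaf markers moved in the same comparisons. All 5 were higher in KO and all 5 in SRDX than in WT at 5 DAD, with summed signals of 1303 to 1577 in KO and 969 to 1618 in SRDX, against 713 to 756 in WT. Of the 7 root markers, 2 were lower in KO and 1 in SRDX, none was higher, and their sums were 1.29 to 2.53 in KO, 1.54 to 1.83 in SRDX and 1.99 to 3.18 in WT. Of the 7, 3 were well above background on no KO array, on a slide where fewer spots were so than in WT. Among them *WOX5* and *SHV2* had lower means in KO than in WT, and *EXPA7* a higher one (-3.10 against -3.43). The leaf markers are photosynthesis genes, and the paper reports that KO and SRDX kept photosynthetic proteins longer than WT in darkness. Marker sums therefore cannot tell tissue makeup from the state of the leaf cells. The part of either in the chaperone differences was not tested.

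In OX leaves *HSFA2* and *HSP70-4* were high in replicates 2 and 3, the replicates with high *ANAC046*, and low in replicate 1. *HSFA2* had -3.50, 0.17 and 3.34 in OX, against -1.85, -3.44 and -4.70 in WT at 50 DAS. OX replicates 2 and 3 lay above every WT array and OX replicate 1 lay among them. *HSFA2* was not tested, being well above background on 2 OX arrays and 1 WT array, and without that filter its mean difference of 3.33 ± 1.82 had an adjusted p of 0.336. *HSP70-4* had -1.33, 2.05 and 2.85 in OX and 0.64, -1.07 and -0.14 in WT, so that OX replicate 1 was the lowest of the 6 arrays and OX replicates 2 and 3 were the highest. Its mean difference of 1.38 ± 1.13 was not past the limit (adjusted p = 0.435). *ANAC046* itself, 6.29 ± 1.73 higher, did not pass either (adjusted p = 0.193), though its Storey q-value of 0.0700 was under the limit. OX and WT at 50 DAS lay on different slides, so a difference between slides cannot be told apart from one between these genotypes.

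Of the 4 genes tested in OX, none passed the limit, where 0.0969% of all genes tested did. None had an unadjusted p under 0.05 (23.1% of all genes tested) and none passed by Storey's q-values, by which 24.6% of all genes tested were higher and 34.5% lower. *HSP90.1* had -0.58, -0.27 and 1.01 in OX and 0.63, -1.52 and -0.44 in WT (0.50 ± 0.65, adjusted p = 0.624). *HSP101* had 0.68, 0.35 and 1.97 in OX and 0.83, 0.90 and 0.71 in WT (0.19 ± 0.42, adjusted p = 0.777), with OX replicate 3 above and OX replicates 1 and 2 below all WT arrays. *HSP18.2* had -0.63, -1.32 and -1.12 in OX and -1.01, -0.86 and -1.03 in WT (-0.06 ± 0.21, adjusted p = 0.853), where replicate 1 was the highest OX array, unlike in *HSFA2* and *HSP70-4*. Its sign turned with 75th percentile scaling (0.12). The remaining small HSPs were dim in OX and were not tested. *HSP17.4* was well above background on no OX array, *HSP17.6A* on 1 of 3 and *HSP17.6II* on 2 of 3. *HSP21* had all OX arrays above all WT arrays, as 12.9% of all genes tested did, at signals not well above background.

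**Figure D3:**
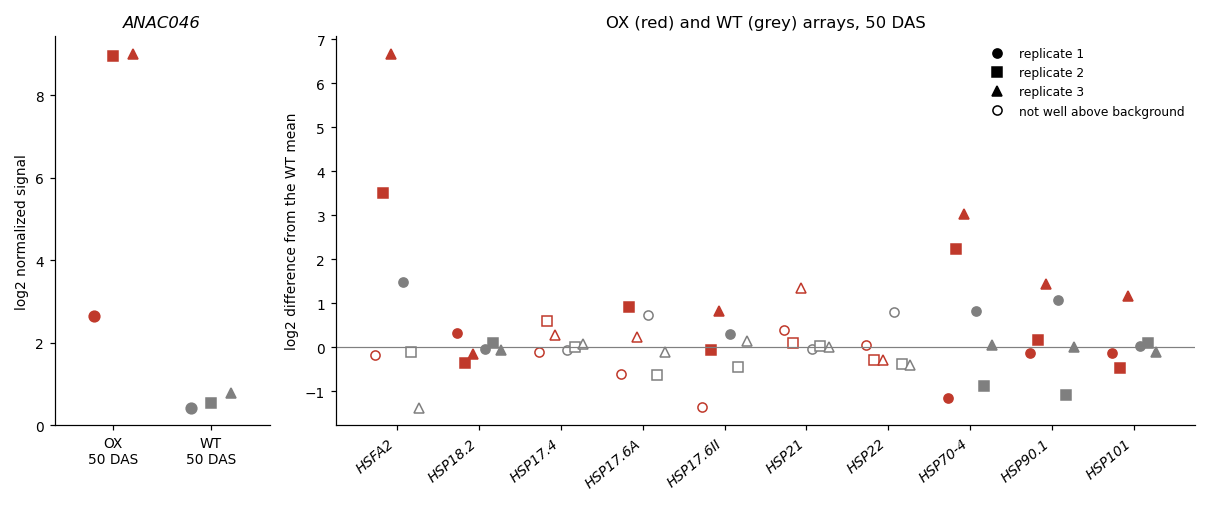
Left, log2 normalized signal of *ANAC046* in OX and WT at 50 DAS; right, log2 difference of each OX (red) and WT (grey) array from the WT mean for the 10 genes, with marker shape for the replicate and open markers for arrays not well above background. For *HSFA2* and *HSP70-4*, OX replicates 2 and 3 lie above the WT arrays while OX replicate 1 (*ANAC046* signal 2.64) does not.

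OX replicate 1 decided how many genes were called. Without it, *HSFA2* was 5.08 ± 1.23 higher in OX than in WT (adjusted p = 0.0306) and *HSP70-4* 2.64 ± 0.55 higher (adjusted p = 0.0213), with all remaining OX arrays above all WT arrays. *HSFA2* entered this fit only through the remaining OX arrays, where it is bright, and was well above background on 1 of the 3 WT arrays. The calls were 2 of the 6 genes then tested, and 25.8% of all genes tested were higher in that fit, which rests on 2 OX arrays. *HSP17.6II*, *HSP90.1*, *HSP101* and *HSP18.2* did not pass in it (adjusted p between 0.175 and 0.592). Over the 10 genes the median difference from the WT mean was -0.13, 0.14 and 0.99 in OX replicates 1, 2 and 3, and the SD of differences over all genes tested was 0.497, 1.11 and 1.24. Replicate 3 lay above all WT arrays for 7 genes, replicate 2 for 5 and replicate 1 for 2. None of the 5 leaf markers passed the limit in OX (sums of 5030 to 5589 in OX and 5204 to 5451 in WT), and the summed root markers were 1.72 to 7.13 in OX and 1.07 to 1.45 in WT, whose part in these signals was not tested.

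*HSP90.1* had another, fainter probe, which was also higher at 5 DAD than at 50 DAS but turned the sign of the KO difference. Its mean signal was 0.92 ± 0.37 in KO, 0.48 ± 0.37 in SRDX and 1.04 ± 0.42 in WT at 5 DAD (SD, n = 3 each). At 50 DAS it was -2.70 ± 0.79 in OX and -3.14 ± 0.65 in WT, with 2 of 3 and 1 of 3 arrays well above background.

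Among other genes of the heat shock pathway, the lists examined held calls in both directions in KO and SRDX, with the most lower calls in the ER chaperones of SRDX. Over all genes tested, 18% were higher and 14.2% lower in KO, and 11.6% were higher and 8.85% lower in SRDX, and the counts of small HSPs, HSP70s, heat shock factors and co-chaperones were not tested against these shares. Of 11 other small HSPs, all tested, 2 were lower and none higher in KO, and 2 were lower and none higher in SRDX. They were the class I genes AT1G53540 (-1.24 ± 0.38 in KO, adjusted p = 0.0648; -1.33 ± 0.38 in SRDX, adjusted p = 0.0727) and AT1G07400 (-0.76 ± 0.25 in KO, adjusted p = 0.0793; -1.44 ± 0.25 in SRDX, adjusted p = 0.0230). The class I genes AT1G59860 (0.15 in KO and -0.20 in SRDX) and AT2G29500 (-0.21 in KO and 0.0009 in SRDX) did not pass in either. None of 7 other HSP90 and CLPB genes passed in KO or SRDX. Of 10 other HSP70 genes, 2 were higher and 1 lower in KO, and 1 was higher and 2 lower in SRDX. *HSP70T-2*, a truncated HSP70, was 0.99 ± 0.16 higher in KO and 1.22 ± 0.16 higher in SRDX, and the plastid *cpHsc70-2* was 0.56 ± 0.15 lower in KO and 0.66 ± 0.15 lower in SRDX. *ERD2*, also an HSP70 gene, was 0.68 ± 0.19 higher in KO, though well above background on 1 of 3 KO arrays, and the cytosolic *HSC70-1* was 0.60 ± 0.21 lower in SRDX.

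Of the 20 other heat shock factor genes, 19 were tested in KO, with 5 higher and 3 lower, and 18 in SRDX, with 3 higher and 1 lower. *HSFA6A* was 2.37 ± 0.30 higher in KO and 2.06 ± 0.30 higher in SRDX, and *HSFC1* was 1.76 ± 0.26 higher in KO and 1.34 ± 0.26 higher in SRDX. *HSFA3* was 1.37 ± 0.22 higher in KO and 1.84 ± 0.22 higher in SRDX. *HSFB4* was at least 3.46-fold higher in KO, being not well above background in WT, and *HSFA8* was 0.39 ± 0.14 higher in KO. The lower factor in both was *AT-HSFB2B* (-0.80 ± 0.27 in KO and -1.04 ± 0.27 in SRDX). Also lower in KO were *HSFB3* (-1.21 ± 0.31) and *HSFA9* (at least 2.15-fold, being well above background on no KO array). Of 15 co-chaperones and other heat-responsive genes tested, 2 were higher and 1 lower in KO, and none was higher and 2 lower in SRDX. The lower gene in both was *DREB2A*, a transcription factor of drought and heat responses (-1.01 ± 0.28 in KO and -1.0 ± 0.28 in SRDX). Higher in KO were the coactivator *MBF1C* (0.47 ± 0.14) and *HSA32* (0.52 ± 0.17), a gene of lasting heat tolerance, and lower in SRDX was AT2G20560, a gene for a DnaJ-like co-chaperone (-0.61 ± 0.19).

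Of 13 ER chaperones tested, 8 were lower and none higher in SRDX, where 8.85% of all genes tested were lower, and 1 was lower and none higher in KO. *BIP1* and *BIP2*, the HSP70s of the ER, were 0.89 ± 0.27 and 0.77 ± 0.25 lower in SRDX, and the calreticulin gene *CRT1b* was 0.76 ± 0.21 lower in SRDX and 0.52 ± 0.21 lower in KO. The median over the 13 genes was -0.63 in SRDX and -0.15 in KO, against -0.04 and 0.02 over all genes tested. The 5 that did not pass in SRDX were *BIP3* (-0.67), *PDIL1-1* (-0.30), *SDF2* (-0.33), *BZIP60* (-0.17) and AT5G07340 (-0.087). Between SRDX and KO all 13 means were lower in SRDX, and none of the 13 passed the limit.

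**Figure D4:**
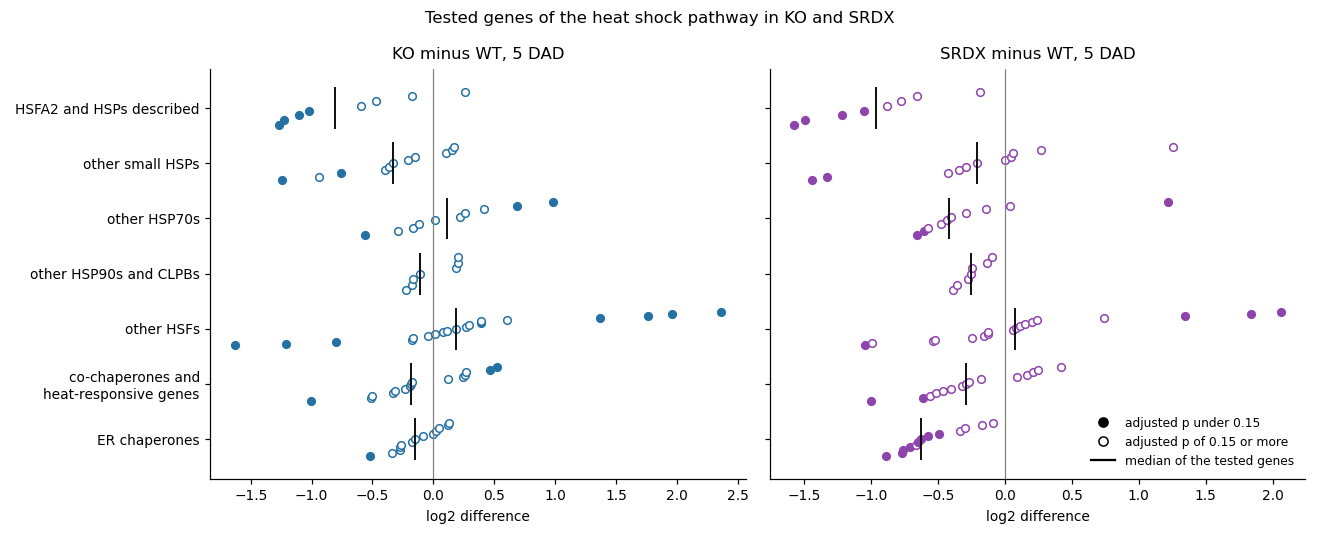
Log2 difference from WT at 5 DAD (horizontal axis) of every tested gene of the heat shock pathway in KO (left) and SRDX (right), by list; filled points had an adjusted p under 0.15 and the vertical black line is the median of a list's tested genes. The ER chaperones lie below 0 throughout in SRDX (median -0.63), and the heat shock factors reach the highest values, *HSFA6A* with 2.37 in KO and 2.06 in SRDX.

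In OX none of the pathway lists held a gene past the limit. Means were higher in OX than in WT for 12 of 12 tested ER chaperones, 7 of 7 other HSP90 and CLPB genes, 12 of 14 co-chaperones and other heat-responsive genes, 7 of 9 HSP70s, 6 of 8 small HSPs and 8 of 16 heat shock factors, where 43.8% of all genes tested had a higher mean. WT at 5 DAD, compared with WT at 50 DAS, had 8 higher and 3 lower of the 11 other small HSPs, 8 higher and 2 lower of 10 HSP70s, 6 higher and 1 lower of 7 HSP90 and CLPB genes, 12 higher and 2 lower of 19 heat shock factors, and 11 higher and 2 lower of 15 co-chaperones and other heat-responsive genes, where 45.9% of all genes tested were higher and 40.2% lower. Among genes well above background on all arrays of both groups, the higher ones were 4 of 7 small HSPs, 7 of 9 HSP70s, 6 of 7 HSP90 and CLPB genes, 9 of 15 heat shock factors and 10 of 14 co-chaperones and other heat-responsive genes, and the rest of the higher calls were not well above background on at least 1 array at 50 DAS. AT1G07400 was 6.22 ± 0.43 higher, AT1G53540 at least 14.6-fold higher, the HSP70 gene *Hsp70-2* 6.07 ± 0.74 higher and *DREB2A* 6.63 ± 0.22 higher. AT1G54050, a class III small HSP gene, was 2.67 ± 0.13 lower in WT at 5 DAD, as were the factors *HSFC1* (4.04 ± 0.19 lower) and *HSFB4* (at least 10.3-fold lower). Of the ER chaperones, 10 of 13 were higher in WT at 5 DAD and 1 lower. Of the 12 well above background on all arrays of both groups, 9 were higher. *BIP3*, 2.66 ± 0.26 higher, entered the test only through the dark group. The 5 leaf markers were all lower in WT at 5 DAD (sums of 713 to 756, against 5204 to 5451 in WT at 50 DAS), and 5 of the 6 root markers tested were higher. Those 5 entered the test only through the dark group, and *NRT2:1*, the only root marker well above background on all arrays of both groups, did not pass (0.20, adjusted p = 0.565). Their part in the chaperone levels was not tested.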

How the data were processed

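RNA was labelled with Cy3 and hybridized to Agilent Arabidopsis 44k arrays with 43603 probes. The deposited intensity of each spot was background-subtracted by Agilent Feature Extraction (11.5.1.1 per the file headers, 9.1.3.1 in the submitters' processing notes). The authors' normalized table holds values on a log scale of unstated base, and its slope on the natural log of the deposited intensity was 0.914 to 1.04, so it was read as natural log and used as an alternative, its centring being the authors'. Outlier spots were left out, signals divided by the array median of the spots kept, as in the study's methods, and spots of a probe averaged. Quantile normalization used these 15 arrays alone, where the study also used other arrays of its group, and values were taken to log2. Probe names matched 25410 loci of the TAIR10.1 gene table (78.8% of probes), and the brightest probe stood for a gene.

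Groups were compared with limma 3.58.1 (R 4.3.3) over all genes, with no replicate block and a Benjamini-Hochberg limit of 0.15, where the study used Storey's q-values. The fits held 6 arrays at 50 DAS, 9 at 5 DAD, or the 6 WT arrays. The number of arrays limits the precision. In data simulated from these arrays the fit found 154 of 200 genes changed by 2 (log2) in OX, 171 in KO and 189 in WT at 5 DAD, and 64, 57 and 135 of those changed by 1. The simulation drew each gene independently and changed only 200 genes. It leaves out deviations that many genes of an array share, so its rates may not hold for the real comparisons. Alternatives were 75th percentile scaling, normexp on median signals with an offset of 50, the authors' table, other filters and limits, slide or replicate blocks and each array left out. Members, gene lists and tests were chosen with earlier results of these data known. All 10 members are named, and from each list up to 3 genes per comparison with the largest difference among those past the limit without overlap. Of the heat shock factors, all that passed in KO and SRDX are named. Figures were drawn with matplotlib 3.10.9. Promoter and protein sequences were not used here.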

Additional observations from a re-analysis of the deposited data

How the results depend on the processing

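Among the alternatives other than left-out arrays, 440 values of single genes kept their direction and their side of the limit, 10 newly passed it, 6 no longer did and 4 changed sign. The number of genes lower in KO was 2 at a limit of 0.05, against 4. The number higher in WT at 5 DAD was 3, against 7, when only probes well above background on every array were tested, which leaves fewer genes. Signs turned for *HSP18.2* in OX with 75th percentile scaling (0.12) and in WT at 5 DAD with normexp (-0.034), and, with slide as a fixed block (chosen after seeing the data), for *HSP18.2* (-0.63) and *HSP17.4* (-0.18) between SRDX and KO. The cause was not tested.

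Leaving out 1 array at a time gave 0 to 2 genes higher in OX, 2 to 5 lower in KO, 2 to 7 lower in SRDX, 0 to 1 higher in SRDX than in KO (*HSP18.2*, 0.98, without SRDX replicate 3) and 7 in WT at 5 DAD. The share of all genes called is given above only for OX without replicate 1. Ranges that crossed 0 were -0.26 to 0.088 for *HSP18.2*, -0.041 to 1.03 for *HSP90.1* and -0.30 to 0.51 for *HSP101* in OX, -0.45 to 0.012 for *HSP70-4* in KO, -0.45 to 0.0625 for *HSP90.1* in SRDX, -0.23 to 0.47 for *HSP17.4* and -0.82 to 0.024 for *HSP101* between SRDX and KO, and -0.027 to 0.085 for *HSP18.2* in WT at 5 DAD.

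With 75th percentile scaling, 3788 genes of all were higher and 5470 lower in KO (4578 and 3613 otherwise), 220 and 124 between SRDX and KO (36 and 69 otherwise), and the median of all genes in WT at 5 DAD was 0.28 (0.13 otherwise). The same replicate numbers did not pair OX with WT arrays, which deviated with correlations of -0.15, -0.16 and 0.07. Same-numbered SRDX and KO arrays deviated with correlations of 0.19, 0.60 and -0.13, so their replicates 2 resembled each other. SRDX replicate 2 and KO replicate 1 had a correlation of -0.54. With the replicate block, 5 genes were lower in KO (*HSFA2* added), 6 in SRDX (*HSP70-4* and *HSP101* added), none passed in OX or between SRDX and KO, and 7 were higher in WT at 5 DAD. The shares of all genes called with that block are not given here. Calls over all genes also moved at a limit of 0.05 (1894 higher and 1200 lower in KO, 1036 and 582 in SRDX), with slide as a random block (2860 and 1996 in KO) and, in OX, in 1 fit of all 15 arrays (2432 and 3298, against 19 and 1). Slide as a random block could not be fitted for OX or for WT at 5 DAD against 50 DAS.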

Other observations

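The genes whose signal followed the mean of the 10 heat shock genes most closely over the 15 arrays, out of 20671 and after each gene was centred within the 50 DAS and within the 5 DAD arrays, were *CPK26* (a calcium-dependent protein kinase gene, r = 0.937), AT4G39140 (0.936), *AT-HSFB2B* (a class B heat shock factor, 0.934), AT1G80320 (0.933) and AT5G62620 (0.933). The mean included *HSP21* and *HSP22*, never well above background. It was not scaled, so genes with a wide spread, such as *HSFA2* and *HSP70-4* in OX (SD 3.42 and 2.22), weigh more in it. The other heat shock genes followed it less closely, with r between 0.404 (*HSP18.2*) and 0.864 (*HSP70-4*). Over the 45 pairs of the 10 genes the median r was 0.455, so they did not share 1 profile. The arrays of a group share genotype, scan day and mostly slide, so these are descriptions of 15 arrays and not of independent samples. The mean log2 difference of *AT-HSFB2B* from WT at 5 DAD was -0.80 in KO and -1.04 in SRDX, a description only, since its likeness to the heat shock genes on the same arrays chose it here.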
